A study of Homo sapiens with 15 samples.

Results

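BLOC1S1, CD59, TGOLN2, HGSNAT and PER1 are 5 genes whose mRNAs have been reported as substrates of regulated IRE1-dependent decay (RIDD). They were taken by gene symbol from a count table of 13243 genes, and each symbol matched 1 row. Counts came from RNA-seq of HEK293T, a widely used cell line of embryonic kidney origin, treated for 4 h. The groups were the vehicle DMSO (3 libraries), the IRE1/XBP1s-activating compounds IXA1 (2 libraries), IXA4 (3) and IXA6 (3), and thapsigargin (Tg, 3 libraries). Tg empties the calcium store of the endoplasmic reticulum (ER) by inhibiting the SERCA pump and triggers every branch of the unfolded protein response. The labels speak of 3 independent experiments, and p-values measure the spread between these cultures of 1 cell line. The time of treatment was the same for all compounds, but their doses are unknown here. The third IXA1 sample was not analysed here because no count column matched its title.

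IRE1 is an ER membrane protein with a kinase and an endoribonuclease domain on its cytosolic side. When unfolded proteins accumulate in the ER, the ribonuclease cuts XBP1 mRNA at a pair of hairpin loops, and ligation of the outer pieces gives the mRNA of the transcription factor XBP1s. In RIDD the same ribonuclease cuts other mRNAs, many of them at the ER membrane and many within an XBP1-like loop, and the pieces are degraded by exonucleases. The comparison asked whether any of the 5 mRNAs was lower with the IXA compounds as well as with Tg.

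The known cut sites that lie in an XBP1-like loop, many but not all of them, share a 7-base pattern, CNGCAGN. Here N is any base, and the loop is closed by a stem. A stem of at least 4 pairs (Watson-Crick or G:U) around such a loop was searched for on the sense strand of 1 transcript per gene, from GENCODE 29 on GRCh38. The sequences found are printed 5′ to 3′ as DNA, with the loop in capitals, because they place the reported cut motif in the mRNAs whose levels follow; the XBP1 pair is shown as the reference the search had to find.
XBP1, chr22:28796143-28796161, minus strand: ctgagtCCGCAGCactcag
XBP1, chr22:28796116-28796136, minus strand: tgcacctCTGCAGCaggtgca
BLOC1S1, chr12:55719583-55719601, plus strand: gggcagCTGCAGTctgccc
CD59, chr11:33717453-33717467, minus strand: tagcCTGCAGTgcta
CD59, chr11:33710139-33710157, minus strand: ttctggCAGCAGCctggag
TGOLN2, chr2:85327544-85327558, minus strand: ggagCCGCAGActcc
TGOLN2, chr2:85327334-85327348, minus strand: ggagCTGCAGActcc
PER1, chr17:8143369-8143383, minus strand: tctgCTGCAGCtgga

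All of these matches lay in coding sequence. The BLOC1S1 match was in exon 4 of 4, 451 bases into a transcript of 571 bases, and its stem had 6 pairs. CD59 had a match with 4 pairs in exon 3 of 4 and another with 6 pairs in exon 4 of 4. Both TGOLN2 matches were in exon 2 of 4 and both had 4 pairs, and the PER1 match, also of 4 pairs, was in exon 19 of 23. No match was found in either of the 2 coding transcripts of HGSNAT. At least 1 match was present in 4 of 5 coding transcripts of BLOC1S1, 10 of 10 of CD59, 6 of 6 of TGOLN2 and 2 of 3 of PER1. The shorter motif CTGCAG alone said little, since 85.6% of the 12743 genes with a transcript held it, and HGSNAT held 6 copies.

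**Figure D1:**
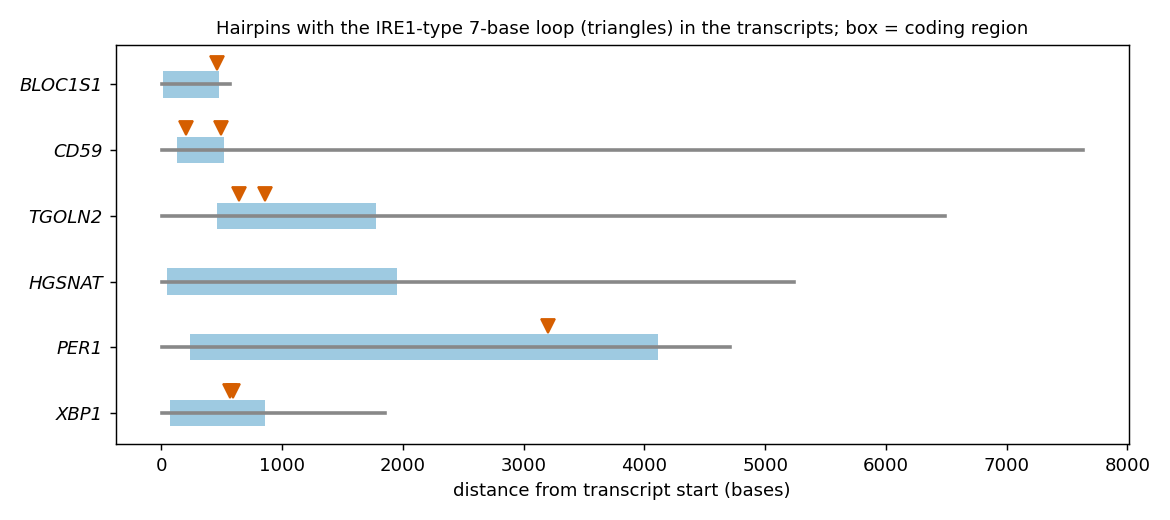
Position of the hairpin matches (triangles) along 1 transcript per gene, in bases from the transcript start, with the coding region as a box and the rest of the transcript as a line. BLOC1S1 and PER1 have 1 match each, CD59, TGOLN2 and XBP1 have 2 each, HGSNAT has none, and every match lies over a coding region.

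A match was not rare. Of the 12743 genes, 1811 (14.2%) had one, and long transcripts had one more often. Among transcripts within 20% of the length of the CD59 transcript (7631 bases), 21.9% held a match. The corresponding shares were 20.5% for TGOLN2, 16.4% for PER1 and 17.3% for HGSNAT, whereas only 4.35% of the 115 transcripts as short as that of BLOC1S1 held one. Raising the stem to at least 5 or at least 6 pairs, a setting chosen after the data were seen, left 2 of the 5 genes with a match, BLOC1S1 and CD59. In the longer CD59 stem and the PER1 stem, G:U pairs lie at or next to the pair that closes the loop. Neither would reach 4 pairs by Watson-Crick pairing alone, and the other printed stems hold no G:U pair. A search without G:U pairs was not run. A match describes the letters of an annotated transcript and is not a cut site, and cleavage was not measured.

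The libraries held 14160321 to 15726742 counts each, and the 5 genes had 383 to 2809 counts per library, which gives a counting error of 1.89% to 5.11% per value. Levels are given as CPM (counts scaled to library size with TMM factors), without division by transcript length, so they compare libraries and not genes. XBP1, whose promoter is a target of its own product, averaged 2.05-fold, 1.78-fold, 1.78-fold and 3.70-fold its DMSO level with IXA1, IXA4, IXA6 and Tg, and DNAJB9, an XBP1s target and ER chaperone, 2.23-fold, 2.36-fold, 2.45-fold and 6.67-fold. HSPA5, the chaperone BiP that is also an ATF6 target, was at 1.56-fold, 1.62-fold and 1.63-fold with the IXA compounds and 10.1-fold with Tg. The mRNA of IRE1 itself, ERN1, passed the test only in Tg (1.41-fold, adjusted p = 0.000178). Of 8 markers of the HEK293 line, 6 were in the table and summed to 895.9 to 1124 CPM per library, while PAX8 and SOX11 were not in it. Of 4 fibroblast markers, COL1A1 and LUM were in the table and summed to 10.9 to 16.6 CPM per library, and none of the hepatocyte, muscle or keratinocyte markers was in it. In bulk RNA, fewer cells of a kind and less RNA per cell cannot be told apart, and neither can slower synthesis and faster decay of an mRNA.

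With Tg, 3 of the 5 mRNAs fell (CD59, TGOLN2 and BLOC1S1), PER1 rose and HGSNAT did not pass the test. Over all genes 17% fell and 18.8% rose with Tg at an adjusted p under 0.05 (edgeR quasi-likelihood test, Benjamini-Hochberg over all genes), so 35.8% of all genes moved. With single IXA compounds none of the 5 fell at that threshold, where 0.491% (IXA1), 0.0831% (IXA4) and 0.778% (IXA6) of all genes fell. In either direction 2.31%, 0.8% and 2.29% of all genes passed with IXA1, IXA4 and IXA6, and of the members 1, 0 and 0. At an unadjusted p under 0.05, 1 member, CD59, was lower with each IXA compound, where 6.6%, 4.1% and 8.32% of all genes were with IXA1, IXA4 and IXA6. At the same threshold 3 members (BLOC1S1, HGSNAT and PER1) were higher with IXA1, as were 8.93% of all genes, and none was with IXA4 or IXA6. The DESeq2 Wald test called CD59 lower with IXA4 and IXA6 but not with IXA1. CD59 was also the only member that fell in the mean of the IXA groups against DMSO, a contrast in which 0.242% of all genes fell. PER1 was the only member to rise with an IXA compound, IXA1, where 1.82% of all genes rose. With IXA4 and IXA6, where no member rose, 0.717% and 1.51% of all genes did.

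**Figure D2:**
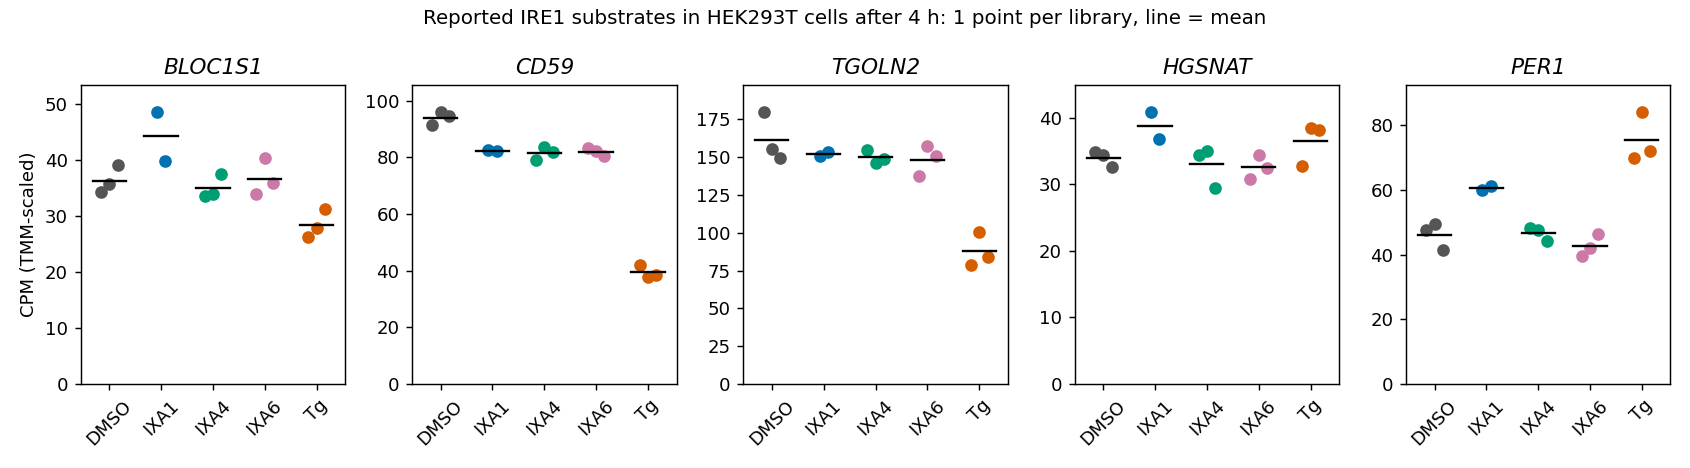
Level of each gene in every library, in TMM-scaled CPM on axes that start at 0, with 1 point per library and a line at the mean of each group (n = 2 for IXA1 and 3 for the others). CD59 lies below DMSO in all 11 treated libraries and lowest with Tg, TGOLN2 and BLOC1S1 lie below DMSO in the Tg libraries, and PER1 lies above DMSO with IXA1 and Tg.

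BLOC1S1 encodes a subunit of BLOC-1 and of BORC, complexes that act in the making of lysosome-related organelles and in the movement of lysosomes along microtubules, and its mRNA is the most widely used RIDD reporter. It stood at 34.2, 35.6 and 39.1 CPM in the DMSO libraries and at 26.1, 27.9 and 31.2 CPM with Tg. Every Tg library was below every DMSO library, as for 21.8% of all genes in that direction. The mean fell from 36.3 ± 2.56 to 28.4 ± 2.58 CPM (SD, n = 3 each), a log2 fold change of -0.35 ± 0.09 (SE) with an adjusted p of 0.00303. This was the smallest of the 3 falls, at 78.3% of the DMSO level. It was kept without any single library but not when a fold of at least 1.2 was required (adjusted p = 0.303).

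The IXA libraries of BLOC1S1 were not low. IXA1 gave 48.5 and 39.8 CPM, IXA4 gave 33.6, 33.9 and 37.5 CPM, and IXA6 gave 33.8, 40.3 and 35.8 CPM. Both IXA1 libraries were above all DMSO libraries, as for 17.6% of all genes, while IXA4 and IXA6, which lay above DMSO without overlap for 9.2% and 12% of all genes, overlapped it here. The log2 difference from DMSO was 0.28 ± 0.09 with IXA1 (adjusted p = 0.125), -0.05 with IXA4 (95% interval -0.23 to 0.13) and 0.01 with IXA6 (-0.16 to 0.19). The IXA1 difference rested on which IXA1 library was kept, at 0.13 without replicate 1 and 0.42 without replicate 2. Against Tg, 3 of the 5 members were called higher and 1 lower with each IXA compound. Of all genes, 15.9%, 16% and 14.2% were called higher than Tg with IXA1, IXA4 and IXA6. The shares called lower were 17.9%, 18.4% and 16.8%. Set directly against Tg, BLOC1S1 was higher with each of the compounds, by 0.64 ± 0.10 (IXA1, adjusted p = 1.82e-05), 0.30 ± 0.09 (IXA4, adjusted p = 0.0107) and 0.37 ± 0.09 (IXA6, adjusted p = 0.00250) on the log2 scale. The IXA4 difference lost its call without IXA4 replicate 3 (adjusted p = 0.0599) or Tg replicate 1 (adjusted p = 0.0588). Both the IXA4 and the IXA6 difference lost it when a fold of at least 1.2 was required (adjusted p = 0.619 and 0.290). On GRCh38, exons of BLOC1S1 overlap those of ITGA7 on the opposite strand, and whether counting used strand is unknown here. ITGA7 averaged 2.84 to 3.78 CPM per group. BLOC1S1 also shares exons with the readthrough gene BLOC1S1-RDH5, which was not analysed here. Exons of CD59 overlap those of AL049629.2, and exons of PER1 overlap those of AC129492.3 and MIR6883, all on the same strand. These genes were not analysed either.

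CD59 encodes the GPI-anchored surface protein protectin, which blocks assembly of the membrane attack complex of complement. Its level was 91.4, 95.9 and 94.7 CPM in DMSO and 41.9, 37.7 and 38.5 CPM with Tg. The Tg libraries lay far below all others. With Tg, 21.8% of all genes lay below DMSO without overlap. The mean of CD59 fell to 39.4 ± 2.23 from 94.0 ± 2.35 CPM, which is 41.9% of the DMSO level. The log2 fold change was -1.25 ± 0.06 with an adjusted p of 1.31e-14, the largest fall among the 5 genes. It was called in all 13 other settings tried.

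In the IXA libraries CD59 sat in a narrow band between DMSO and Tg. The values were 82.4 and 82.3 CPM with IXA1, 79.1, 83.7 and 81.9 CPM with IXA4, and 83.4, 82.0 and 80.5 CPM with IXA6. All 8 IXA libraries were thus below all 3 DMSO libraries, and with Tg all 11 treated libraries were, a pattern that 133 genes (1% of the table) showed and that CD59 alone showed among the 5. By compound, 17.3%, 8.9% and 12% of all genes lay below DMSO without overlap with IXA1, IXA4 and IXA6. The log2 differences were -0.19 ± 0.06, -0.20 ± 0.05 and -0.20 ± 0.05 with IXA1, IXA4 and IXA6, and their adjusted p-values of 0.106, 0.0903 and 0.0535 missed the threshold in edgeR. The mean of the IXA groups was called lower, at -0.20 ± 0.04 (95% interval -0.29 to -0.11), a ratio of 0.872 with an adjusted p of 0.0211. Leaving out single libraries kept that call in 8 of 11 fits, and it was lost without DMSO replicate 2 (adjusted p = 0.212), DMSO replicate 3 (0.129) or IXA1 replicate 2 (0.0541), with the difference between -0.22 and -0.18 throughout. The authors' deposited table does not name its reference group. Which IXA1 libraries entered it is unknown here, and IXA1 rests on 2 libraries in the present fits. In the authors' deposited table the log2 fold change of CD59 was -0.16 with IXA1 (adjusted p = 0.0858), -0.20 with IXA4 (0.0204) and -0.20 with IXA6 (0.0269), made by DESeq from the same series.

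The fall of CD59 with Tg exceeded its difference with the IXA compounds in a direct test. CD59 was higher with IXA1, IXA4 and IXA6 than with Tg by 1.06 ± 0.06, 1.05 ± 0.06 and 1.06 ± 0.06 on the log2 scale (adjusted p = 3.86e-12, 6.20e-13 and 5.87e-13). Of all genes, 15.9%, 16% and 14.2% were called higher than Tg with these compounds. Among the IXA compounds no difference in CD59 was detectable, with 95% intervals of the log2 difference from -0.11 to 0.14 (IXA1 minus IXA4), -0.12 to 0.13 (IXA1 minus IXA6) and -0.12 to 0.11 (IXA4 minus IXA6).

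TGOLN2 encodes TGN46, a membrane protein that cycles between the trans-Golgi network and the cell surface. It was at 179.7, 155.2 and 149.2 CPM in DMSO and at 78.8, 100.4 and 84.3 CPM with Tg. No Tg library reached the lowest DMSO library, as for 21.8% of all genes. The mean fell from 161.4 ± 16.2 to 87.8 ± 11.2 CPM, or 54.4% of DMSO. The log2 fold change was -0.88 ± 0.08 (adjusted p = 1.85e-09). The IXA values were 151.1 and 153.3 CPM (IXA1), 154.9, 146.3 and 148.7 CPM (IXA4) and 137.4, 157.3 and 150.6 CPM (IXA6). Each IXA group overlapped DMSO, and the first DMSO replicate was the highest of all 14 libraries. The log2 differences of -0.08 (95% interval -0.25 to 0.08), -0.11 (-0.26 to 0.04) and -0.12 (-0.27 to 0.03) had adjusted p-values of 0.674, 0.717 and 0.408, and the mean of the IXA groups had an interval of -0.23 to 0.02. Without DMSO replicate 1 the differences with IXA1, IXA4 and IXA6 shrank to -0.00023, -0.021 and -0.036. The log2 fold change with Tg lay below all of the intervals. TGOLN2 was higher with each IXA compound than with Tg, by 0.79, 0.77 and 0.76 on the log2 scale. The shares of all genes called higher than Tg were 15.9%, 16% and 14.2%.

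HGSNAT encodes the lysosomal acetyltransferase that acts in the breakdown of heparan sulfate. Its values were 34.9, 34.4 and 32.6 CPM in DMSO and 32.8, 38.4 and 38.2 CPM with Tg, so the groups overlapped. The log2 difference of 0.10 ± 0.08 (interval -0.06 to 0.26, adjusted p = 0.338) did not pass the test, and a fall of more than 0.06 lay outside its interval. IXA1 gave 40.9 and 36.8 CPM, above all DMSO libraries, as for 17.6% of all genes. The log2 difference was 0.19 ± 0.09 (0.11 without IXA1 replicate 1), with an adjusted p of 0.283. IXA4 (34.5, 35.0 and 29.5 CPM) and IXA6 (30.9, 34.4 and 32.4 CPM) overlapped DMSO, with adjusted p-values of 0.915 and 0.742. Against Tg, HGSNAT was at -0.14 with IXA4 and -0.16 with IXA6, neither called (adjusted p = 0.166 and 0.122), although both were called without Tg replicate 1 (0.0446 and 0.0304).

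PER1 encodes a repressor of the circadian clock, and its mRNA is also an acute target of cAMP and glucocorticoid signalling. It was at 47.7, 49.6 and 41.3 CPM in DMSO and at 70.0, 84.1 and 71.9 CPM with Tg. Every Tg library was above every DMSO library, as for 21.7% of all genes, and the mean rose from 46.2 ± 4.36 to 75.3 ± 7.65 CPM. The log2 fold change was 0.70 ± 0.08, a 1.63-fold rise with an adjusted p of 1.59e-07. IXA1 gave 59.96 and 61.4 CPM, also above all DMSO libraries, as for 17.6% of all genes. PER1 thus rose 1.31-fold with IXA1 (log2 0.39 ± 0.09, adjusted p = 0.0166). The call ended without DMSO replicate 3 (adjusted p = 0.0762), IXA1 replicate 1 (0.115) or IXA1 replicate 2 (0.162), and when a fold of at least 1.2 was required. IXA4 (48.2, 47.8 and 44.3 CPM) and IXA6 (39.5, 42.1 and 46.5 CPM) overlapped DMSO, with log2 differences of 0.02 and -0.11 (adjusted p = 0.975 and 0.493).

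PER1 was the only one of the 5 genes for which IXA compounds were called different from each other. Over 15 tests (3 pairs of compounds and 5 genes), PER1 was higher with IXA1 than with IXA4 by 0.38 ± 0.09 (adjusted p over all genes = 0.0228) and than with IXA6 by 0.51 ± 0.09 (0.00168), where 1.9% and 4.53% of all genes were higher. No member was lower in these pairs, where 0.68% and 2.82% of all genes were, and 2.58% and 7.35% passed in either direction. The first of these was lost without IXA1 replicate 1 (0.140), IXA1 replicate 2 (0.173), IXA4 replicate 2 (0.0604) or IXA4 replicate 3 (0.1003). PER1 with IXA1 was still below its level with Tg, by -0.31 ± 0.09 on the log2 scale (adjusted p = 0.00752, 0.0661 without IXA1 replicate 1, and 0.502 when a fold of at least 1.2 was required). With IXA4 and IXA6 it was below Tg by -0.69 and -0.82. Of all genes, 17.9%, 18.4% and 16.8% were called lower than Tg with IXA1, IXA4 and IXA6. BLOC1S1 differed by 0.34 ± 0.09 between IXA1 and IXA4, which missed the threshold in the fit of all groups (adjusted p = 0.0547) and passed it in the DESeq2 Wald test (0.0214). Without IXA1 replicate 1 it was 0.19 (adjusted p = 0.532). None of the 5 genes differed between IXA4 and IXA6, nor did any gene of the table in edgeR, although 558 were higher and 664 lower at an unadjusted p under 0.05 and DESeq2 called 4 higher and 18 lower.

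**Figure D3:**
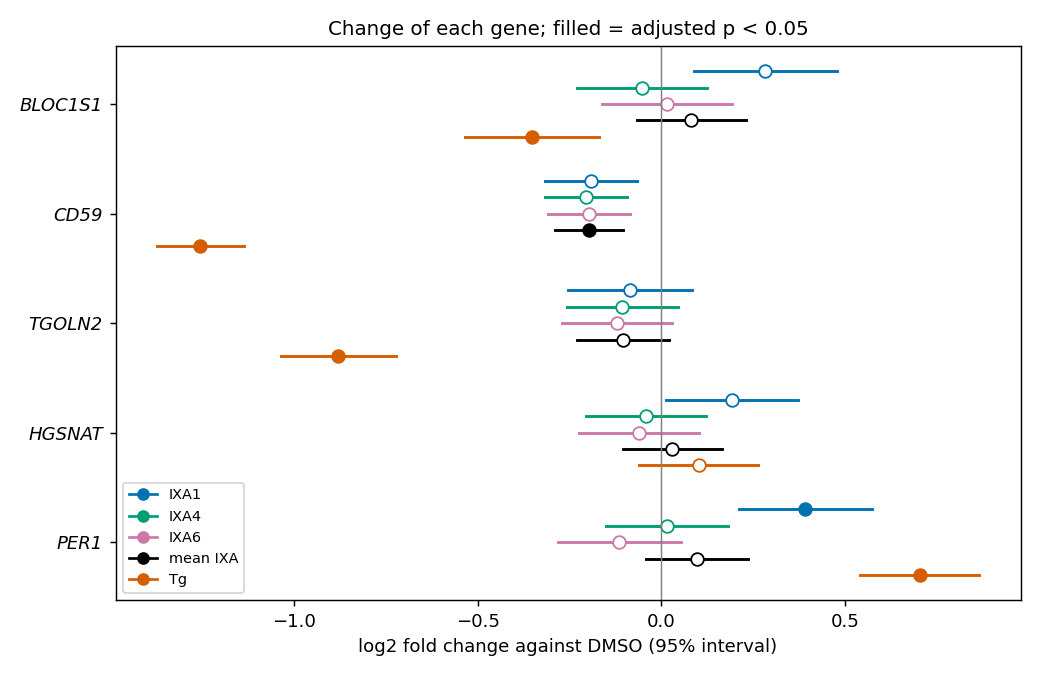
Log2 fold change of each gene against DMSO with its 95% interval from edgeR, by compound and for the mean of the IXA groups; filled points have an adjusted p under 0.05. CD59, TGOLN2 and BLOC1S1 are filled to the left of 0 with Tg, CD59 is also filled for the IXA mean at -0.20, and PER1 is filled to the right with IXA1 and Tg.

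The same question was put to 20 other transcripts reported as IRE1 substrates in various cells, of which 15 were in the table. The list, like the genes above, was chosen with earlier results of these data known. Its counts therefore describe the listed transcripts and are not an independent test of the question. With Tg 8 fell and 1 rose, beside 17% and 18.8% of all genes. With IXA1, IXA4 and IXA6 none rose and 1, 2 and 2 fell in edgeR, where 0.491%, 0.0831% and 0.778% of all genes fell. None was higher at an unadjusted p under 0.05 or by DESeq2. At an unadjusted p under 0.05, 3 were lower with each IXA compound, where 6.6%, 4.1% and 8.32% of all genes were. DESeq2 called 0 lower, but it gave no adjusted p for DGAT2 with any IXA compound or for BCAM with IXA4 and IXA6. The median log2 difference of the 15 was -0.22 with Tg and -0.03, -0.08 and -0.06 with IXA1, IXA4 and IXA6, beside -0.01 or closer to 0 for all genes. The transcripts that fell with IXA compounds were DGAT2 and BCAM.

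DGAT2 encodes an ER enzyme that makes triacylglycerol. It was at 8.83, 10.2 and 9.88 CPM in DMSO, 4.15 and 3.51 CPM with IXA1, 4.12, 3.803 and 4.55 CPM with IXA4, 3.51, 3.69 and 4.26 CPM with IXA6 and 1.16, 0.801 and 0.407 CPM with Tg. The groups of treated libraries did not overlap DMSO, and every Tg library was below every IXA library. With IXA1, IXA4, IXA6 and Tg, 17.3%, 8.9%, 12% and 21.8% of all genes lay below DMSO without overlap. All 11 treated libraries lay below DMSO for 1% of all genes. The log2 fold changes were -1.33 ± 0.19, -1.21 ± 0.16 and -1.33 ± 0.17 with the IXA compounds (adjusted p = 0.000176, 8.51e-05 and 2.45e-05) and -3.60 ± 0.22 with Tg (adjusted p = 4.19e-12). The Tg libraries held only 6 to 17 counts of DGAT2.

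BCAM encodes a laminin receptor of the cell surface. It was at 13.1, 14.2 and 12.7 CPM in DMSO, 10.5 and 10.0 CPM with IXA1, 9.06, 8.10 and 8.21 CPM with IXA4, 7.22, 8.85 and 8.20 CPM with IXA6 and 1.91, 2.62 and 2.17 CPM with Tg. It fell by 0.65 with IXA4, 0.72 with IXA6 and 2.58 with Tg on the log2 scale (adjusted p = 0.00198, 0.000579 and 4.87e-13), and its difference of -0.38 with IXA1 was not called (0.126). DESeq2 gave similar log2 fold changes for both genes but set their adjusted p with IXA4 and IXA6 to missing through its filter on mean counts, as it did for DGAT2 with IXA1. In the 171 genes that fell with at least 1 IXA compound, 95 also fell with Tg, but these comparisons share their DMSO libraries. DGAT2, named here after its value was seen, was the 1 gene of the table that fell with all 4 compounds.

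The other transcripts of the list that fell with Tg were SCARA3, MICA, PMP22, COL6A1, PRKCD and RTN4, by 0.58, 0.52, 0.30, 0.28, 0.25 and 0.16 on the log2 scale, and none of them was called with an IXA compound. TNFRSF10B, which encodes the death receptor DR5 and is also induced by the PERK branch, rose by 0.61 ± 0.07 with Tg (adjusted p = 2.48e-07). Both DGAT2 and BCAM had 1 hairpin match, in transcripts of a length at which 10.8% of transcripts had one.

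**Figure D4:**
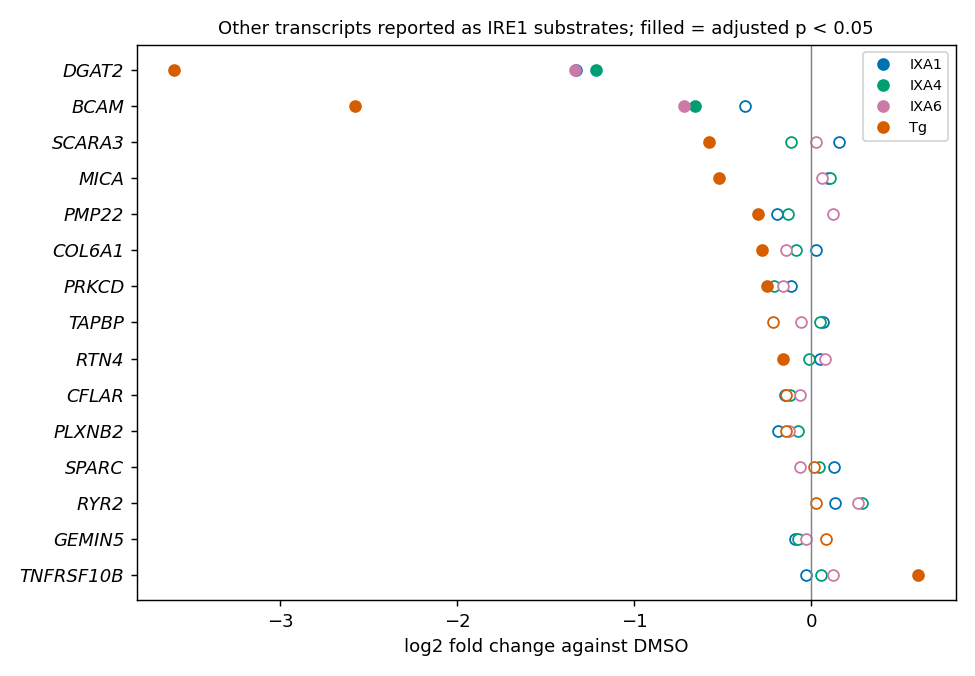
Log2 fold change against DMSO of the 15 measured transcripts of the list of other reported IRE1 substrates, 1 point per compound; filled points have an adjusted p under 0.05. DGAT2 and BCAM are filled far to the left with Tg, DGAT2 is filled with all IXA compounds and BCAM with IXA4 and IXA6, and TNFRSF10B is filled to the right with Tg.

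Partners of the 5 gene products were counted to set each gene beside its pathway. BLOC-1 and BORC partners of BLOC1S1 (16 of 20 measured) numbered 8 that rose and 2 that fell with Tg, beside 18.8% and 17% of all genes, the shares against which the Tg counts of the other lists are also to be read, with BLOC1S3 at 0.78, BORCS6 at 0.58 and BORCS7 at 0.43 on the log2 scale. Their median log2 difference with Tg was 0.11. None passed the edgeR test with an IXA compound, and DESeq2 called 0. At an unadjusted p under 0.05 the counts were 2, 1 and 0 higher and 1, 0 and 0 lower with IXA1, IXA4 and IXA6. Of all genes, 8.93%, 5.08% and 8.64% were higher and 6.6%, 4.1% and 8.32% lower at that threshold. The unadjusted counts of the other lists are also to be read against these shares.

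Complement regulators and genes of GPI anchor synthesis, the pathway that CD59 depends on (30 of 31 measured), split into 6 that rose and 3 that fell with Tg. PIGA, the catalytic subunit of the first step of the anchor, rose by 0.71, and CD55, another GPI-anchored complement regulator, rose by 0.55 on the log2 scale. PIGQ, a subunit of the same first-step complex, fell by 0.83 with Tg, by 0.33 with IXA1 and by 0.39 with IXA6. DPM2 fell by 0.22 with IXA6. With IXA4 no gene of this list was called by edgeR or DESeq2, and 4 had an unadjusted p under 0.05, of which 1 was higher and 3 lower.

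Of 24 trans-Golgi network genes set beside TGOLN2, 4 rose and 7 fell with Tg. The golgins GCC1 and GOLGA4 rose by 0.98 and 0.73, and PACS1, a sorting adaptor, fell by 0.37 on the log2 scale. GOLGA4 also rose with IXA1 (0.35) and IXA6 (0.33). With IXA4 none was called by edgeR or DESeq2, and at an unadjusted p under 0.05 there was 1 higher and 1 lower.

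Of 20 lysosomal genes set beside HGSNAT, 5 fell and 1 rose with Tg, among them CTSA and CTSB at -0.27 and -0.23. Of 21 measured clock genes and PER1 regulators, 6 rose and 3 fell with Tg, with NFIL3 at 1.04, DBP at -0.71 and NR1D2 at 0.67. No gene of either list passed the edgeR test with an IXA compound. At an unadjusted p under 0.05 the lysosomal counts with IXA1, IXA4 and IXA6 were 2, 0 and 0 higher and 1, 0 and 4 lower. The clock counts were 1, 0 and 1 higher and 1, 1 and 2 lower. Of all genes, 8.93%, 5.08% and 8.64% were higher and 6.6%, 4.1% and 8.32% lower. DESeq2 called 1 lysosomal gene higher with IXA1 and no clock gene.

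The machinery that removes cleaved mRNA, namely the 5′ exonuclease XRN1, the exosome, the SKI complex and ribosome rescue factors (18 of 21 measured), rose in 7 cases and fell in 2 with Tg. EXOSC8, an exosome subunit, was at 0.32, HBS1L, a rescue factor, at 0.30 and DIS3, an exosome nuclease, at 0.25 on the log2 scale. None was called with an IXA compound by edgeR or DESeq2. At an unadjusted p under 0.05 the counts were 1, 0 and 0 higher and 1, 0 and 1 lower with IXA1, IXA4 and IXA6. Of 17 measured genes of the IRE1 branch and RNA ligation, 6, 5 and 6 rose and none fell with IXA1, IXA4 and IXA6, and 7 rose and 2 fell with Tg. With each IXA compound 2 of them were lower at an unadjusted p under 0.05, and DESeq2 called none lower.

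Across the 14 libraries the levels of CD59 and TGOLN2 moved together (Pearson r of log2 CPM 0.938), BLOC1S1 less closely with each (0.714 and 0.712), and PER1 moved opposite to CD59 (-0.841). These are descriptions over libraries in which the Tg group stands apart. The genes of the table most like CD59 were TMEM19 (r = 0.994), HSPA8 (0.986) and HSPA2 (0.980). Over the 11 libraries without Tg, TMEM19 kept an r of 0.937 while HSPA8 and HSPA2 were at 0.503 and 0.456. TGOLN2 was most like SNN (0.983), SAPCD2 (0.983) and SZRD1 (0.981), and BLOC1S1 most like POLR2F (0.931), OSR2 (0.916) and NDUFB4 (0.915). Without Tg these were 0.679, 0.819 and 0.756 for TGOLN2 and 0.848, 0.882 and 0.793 for BLOC1S1. HGSNAT was most like ASCC2 (0.909), SREBF2 (0.896) and DBF4B (0.894), and PER1 most like BCL9L (0.972), YARS (0.964) and CDC42EP1 (0.960). Without Tg these were 0.888, 0.948 and 0.911 for HGSNAT and 0.930, 0.906 and 0.876 for PER1. Each set was chosen as the 3 highest of 10753 genes with a mean of at least 5 CPM.

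The hairpin was then used to sort the rest of the table, with the 5 genes and XBP1 left out. Of 1806 genes with a match, 1.16% fell with IXA1, 0.443% with IXA4, 1.22% with IXA6 and 21.4% with Tg. Of 10931 genes without a match the shares were 0.393%, 0.0274%, 0.732% and 16.4%. In genes these are 21 against 43, 8 against 3, 22 against 80 and 386 against 1792. The median log2 differences with and without a match were -0.003 and -0.006 (IXA1), -0.0105 and -0.0015 (IXA4), -0.0126 and 0.0021 (IXA6) and -0.042 and -0.001 (Tg). The shares that rose with and without a match were 1.16% and 1.93% (IXA1), 0.498% and 0.759% (IXA4), 0.886% and 1.63% (IXA6) and 15.6% and 19.8% (Tg). Genes with a match had longer transcripts (median 4241 against 3087 bases) and a higher GC content (52.0% against 48.4%). The counts of genes that fell moved with the libraries kept. Without single libraries they were 10 to 36 (of 65) with IXA1, 4 to 11 (of 11) with IXA4 and 15 to 117 (of 103) with IXA6, lowest without IXA1 replicate 1, IXA4 replicate 1 and IXA6 replicate 1. With only the groups compared in the fit they were 177, 44 and 177. These are counts with no test, the same DMSO libraries enter all 4, and the part of length and GC content in them was not tested beyond the bands that follow.

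Longer stems and bands of length and GC were chosen after the data were seen. With a stem of at least 5 pairs, 1.07% against 0.467% fell with IXA1, 0.535% against 0.0584% with IXA4 (4 of 748 against 7 of 11989 genes), 1.87% against 0.734% with IXA6 and 21.5% against 16.8% with Tg. With at least 6 pairs, 0.654% against 0.499% fell with IXA1 (2 of 306 genes with a match), 1.63% against 0.78% with IXA6 (5 of 306) and 20.9% against 17% with Tg. For IXA4 those were 0 of 306 against 11 of 12431 genes, too few to read a direction from. In transcripts of 2000 to 6000 bases the shares that fell with and without a match were 1.3% and 0.484% (IXA1), 0.648% and 0.0302% (IXA4), 1.76% and 0.756% (IXA6) and 21.6% and 17.5% (Tg). With a GC content of 50% to 60% as well, they were 1.47% and 0.506% with IXA1 (6 and 10 genes), 2.21% and 0.81% with IXA6 (9 and 16 genes), and 24.3% and 24.6% with Tg (99 and 485 genes). For IXA4 that band held 2 genes that fell, DGAT2 and EFNB3, both with a match. The differences between these shares were not tested.

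**Figure D5:**
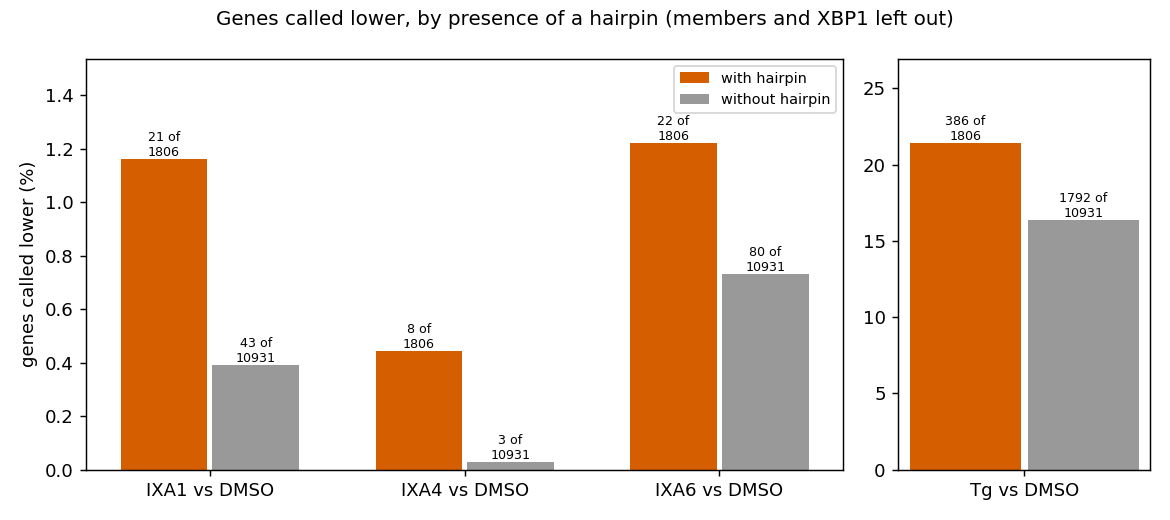
Share of genes called lower against DMSO, in percent, among 1806 genes with a hairpin match and 10931 without, by compound, with the 5 genes and XBP1 left out and the number of genes over each bar; Tg has its own axis. With stems of at least 4 pairs the share is higher with a match for every compound, 8 of 1806 against 3 of 10931 for IXA4.

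The 8 genes with a match that fell with IXA4, named here after their values were seen, were DGAT2, TXNIP, BCAM, ARRDC4, NOTCH3, EFNB3, SLC1A3 and RDH11, and the 3 without were MYH11, SREBF1 and CCAR1. Of the 8, DGAT2, BCAM, NOTCH3, EFNB3 and RDH11 also fell with Tg. NOTCH3, a receptor made in the ER, was at -0.38 with IXA4 and -1.224 with Tg, and EFNB3, a membrane ligand of Eph receptors, at -0.36 and -0.67 on the log2 scale. RDH11, a retinol dehydrogenase of the ER, was at -0.22 and -0.27. TXNIP and ARRDC4, cytosolic arrestin-family genes that glucose induces, fell with IXA4 by 0.69 and 0.40 and rose with Tg by 0.42 and 1.01. In the mean of the IXA groups 32 genes fell, of which 16 had a match, CD59 among them, and 14 of the 16 also fell with Tg, as did 10 of the 16 without a match; both comparisons share the DMSO libraries. The 32 genes became 9 without DMSO replicate 3, the lowest count without a single library, and 20 with the replicate block. TMEM165, a Golgi membrane protein, had a match with a stem of 10 pairs and was at -0.25 ± 0.06 in that mean and -0.94 with Tg. MGAT4B, a Golgi glycosyltransferase, was at -0.23 ± 0.05 and -1.06, and MAP3K5, a stress kinase that binds to IRE1 through TRAF2, at -0.25 ± 0.06 and -0.72.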

How the data were processed

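The authors deposited raw counts per gene symbol and, per the file headers, a table per compound with log2 fold changes and p-values. Per the submitters' processing notes the build was GRCh37.p13 and DESeq was used. The aligner, the counter and the use of strand are unknown here. Of 15 count columns, 14 matched a sample title and 1 was not used. In the deposited IXA tables the sign of the statistic is opposite to that of the log2 fold change, which was used as given. The 22 rows named by a date (0.249% to 0.282% of counts) stayed in the fit. The test was edgeR 4.0.16 under R 4.3.3, with TMM, the default filter (which removed no gene) and 1 quasi-likelihood fit of 5 groups, in 11 comparisons, with p-values adjusted by Benjamini-Hochberg over 13243 genes at 0.05; DESeq2 1.42.0 was an alternative. SE is the log2 fold change over the square root of F. Sequences and their GRCh38 coordinates come from GENCODE 29, from 1 principal transcript per gene, and no coordinate was carried between builds. The scripts were tested on simulated counts. Members and lists were chosen with earlier results of these data known. Named genes are the 5 members, ERN1, XBP1, DNAJB9 and HSPA5, the 3 largest called changes per list and comparison, and the 3 genes most correlated with each member; other names were chosen after their values were seen. Replicate numbers were not used to pair the samples in the main fit. A few results that these rules name are not reported here.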

Additional observations from a re-analysis of the deposited data

How the results depend on the processing

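Of 715 values of the 5 genes under other settings, 665 kept their direction and side of the threshold, 18 changed sign, 11 gained a call and 21 lost one. The Tg calls of CD59, TGOLN2 and PER1 held in every setting. Leaving out an IXA1 library leaves 1, assumed to vary like the other groups. Depth limits each value to the counting error given above, and IXA1 rests on 2 libraries. The sum of BLOC1S1 and its readthrough gene was not run, since that gene was not analysed here.

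CD59 gained a call when only the groups compared were fitted (IXA1 -0.19, adjusted p = 0.0441; IXA4 -0.20, 0.0228; IXA6 -0.20, 0.0473) and with the DESeq2 Wald test (IXA4 -0.20, 0.0284; IXA6 -0.19, 0.0213). Requiring a fold of at least 1.2 ended the calls of BLOC1S1 with Tg (-0.35), CD59 in the IXA mean (-0.20) and PER1 with IXA1 (0.39), and against Tg those of BLOC1S1 with IXA4 (0.30) and IXA6 (0.37) and of PER1 with IXA1 (-0.31), and between IXA compounds both calls of PER1 (0.38 and 0.51), since that setting tests a larger change. Under it the genes called numbered 22 (IXA1), 21 (IXA4), 25 (IXA6), 27 (IXA mean), 1396 (Tg), 1199, 1123 and 1031 (IXA1, IXA4 and IXA6 against Tg), 4 (IXA1 against IXA4) and 9 (IXA1 against IXA6), and members called 0 with IXA1, in the IXA mean and between IXA1 and either other compound. Fitting only the groups compared called 648 genes (IXA1), 198 (IXA4), 1156 (IXA1 against IXA4) and 13 (IXA4 against IXA6), and members called were 2 (IXA1), 1 (IXA4), 1 (IXA6) and 2 (IXA1 against IXA4). DESeq2 called 599 genes between IXA1 and IXA4 and 22 between IXA4 and IXA6, and 1, 1 and 2 members with IXA4, IXA6 and between IXA1 and IXA4. For these counts the cause was not tested.

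Leaving out single libraries gave -0.22 to -0.18 for CD59 in the IXA mean and 0.32 to 0.45 for PER1 with IXA1. It gave 82 to 181 genes called (IXA1), 69 to 95 (IXA4), 118 to 319 (IXA6), 102 to 175 (IXA mean), 11 to 166 (IXA1 against IXA4), 113 to 1128 (IXA1 against IXA6), 2949 to 4778 (IXA1 against Tg) and 0 to 2 (IXA4 against IXA6). Members called ranged from 0 to 1 with IXA1, in the IXA mean and between IXA1 and IXA4. Changes of sign were in values never called: BLOC1S1 with IXA4 (-0.11 to 0.0069), with IXA6 (-0.060 to 0.073) and between them (-0.12 to 0.0068), HGSNAT with IXA4 (-0.087 to 0.033) and IXA4 against IXA6 (-0.025 to 0.095), PER1 with IXA4 (-0.057 to 0.069), CD59 for IXA1 against IXA4 (-0.0081 to 0.033), IXA1 against IXA6 (-0.0062 to 0.019) and IXA4 against IXA6 (-0.027 to 0.015), and TGOLN2 for IXA1 against IXA6 (-0.017 to 0.080) and IXA4 against IXA6 (-0.038 to 0.059).

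Replicate numbers are shared by the groups, but 7 of 26 same-number pairs correlated above 0.1 and 5 of 14 libraries matched their own number best. Correlations of different-number pairs between groups ranged from -0.303 to 0.303. Values were centred within groups of 2 or 3 libraries, so this check cannot exclude pairing. With the replicate block 149 genes were called in the IXA mean, 247 with IXA1, 96 with IXA4, 265 with IXA6 and 4621 with Tg. CD59 in the IXA mean was at -0.20 (adjusted p = 0.0411), and members called were 2 for IXA1 against IXA4 and 2 for IXA1 against IXA6, where BLOC1S1 joined PER1.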
